A study of Mus musculus with 11 samples.

Results

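The genes Gpr17, Pdgfra, Cspg4, Bmp4, Neu4, Enpp6, Olig1, Olig2, Sox8 and Lhfpl3 mark oligodendrocyte precursors or the first steps of their differentiation. They were chosen by symbol, with earlier results of these data known. All 10 were among the 14864 genes of the deposited table and among the 13184 that passed the filter on low values. RNA was sequenced from the hypothalamus of mice 60 to 70 days old. The groups were 6 libraries labelled Het (3 female, 3 male), from mice heterozygous for loss of Myt1l, a zinc finger transcription factor of neurons, and 5 libraries labelled WT (2 female, 3 male), from wild-type mice. The labels give neither the strain nor the allele, and the series' design text calls the libraries biological replicates.

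Oligodendrocytes make the myelin of the central nervous system and arise from precursors that persist and divide in the adult brain. Precursors carry the PDGF receptor alpha and the proteoglycan NG2 on their surface and depend on transcription factors of the OLIG and SOX families. On leaving the cell cycle they pass through a short committed stage, marked by the receptor GPR17 and the phosphodiesterase ENPP6, before they switch on the genes of compact myelin.

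Myt1l itself did not separate the libraries by label. It stood at 58.7 to 130.0 CPM (counts scaled by library size) in the libraries labelled Het and at 51.1 to 89.3 CPM in those labelled WT, and the library labelled Het replicate 9 was the highest of all 11 and that labelled WT replicate 11 the lowest. Among the other libraries the groups still overlapped, with Het replicate 8 at 75.9 CPM and WT replicate 4 at 70.5 CPM. Het and WT below mean the labels, and genotype differences are given with and without the 2 libraries, Het replicate 9 and WT replicate 11. All 12 hypothalamus markers were detected. Their summed level was 2012 to 3282 CPM in Het and 2989 to 3918 CPM in WT libraries, with 5 of 12 lower in Het past the test (3 without the 2 libraries), while 14 striatum markers summed to 2053 to 3767 CPM in Het and 1814 to 2307 CPM in WT libraries, with 6 higher past the test in either case. Penk gave the largest part of the striatum sum, at 1471 CPM in Het and 1125 CPM in WT. It did not pass (log2 difference 0.37, limma adjusted p = 0.117, and 0.24 without the 2 libraries). The part of tissue composition in the results below was not tested. The labels' identifiers begin with 1 of 3 prefixes of unstated meaning. Prefix 14308 holds 4 libraries, all male, prefix 14309 holds 6 of both sexes, and prefix 14111 holds WT replicate 4 alone. Corrected counts totalled 22921048 to 24941704 per library, and how many raw reads lay behind them is unknown.

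Of the 10 genes, Gpr17 was higher in Het past the test, and the other 9 did not pass. Gpr17 was 1.27 times as high in Het as in WT libraries. Every Het value stood above every WT value, but by 0.0402 CPM at the closest, which is less than 1 corrected count. Of all genes tested, 3.35% had no overlap between the groups, and 2.02% had none with Het higher. Cspg4 had the largest fitted difference of the 10, at 0.45 on the log2 scale, with an adjusted p of 0.113. In all, 1 of 10 genes passed, against 3.44% of all genes tested in either direction. With Het higher that share was 2.3%, and with Het lower 1.14%. These shares are a description, since the 10 were chosen with earlier results of these data known. The median log2 difference of the 10 was 0.07, with 6 of 10 above 0, against -0.02 and 47.03% above 0 over all genes tested. Without Het replicate 9 and WT replicate 11 the median of the 10 was 0.12, with 7 of 10 above 0, and none of the 10 passed. In bulk tissue, fewer cells of a type and less RNA per cell cannot be told apart.

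**Figure D1:**
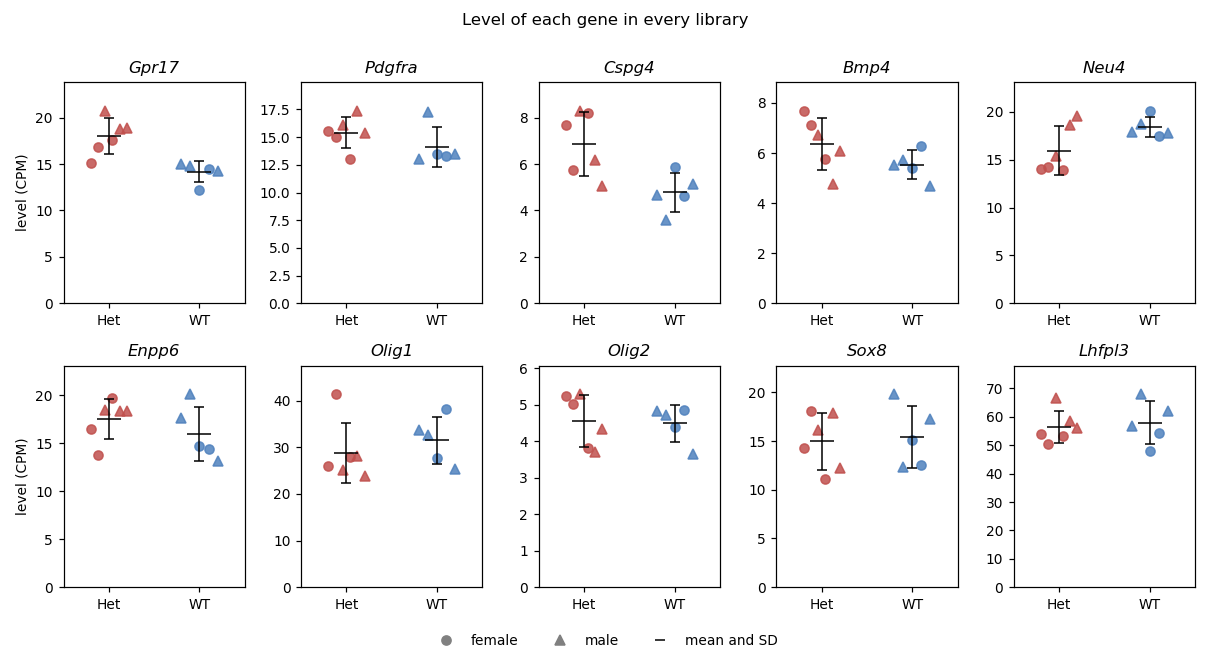
Level of each of the 10 genes in CPM in every library, Het left of WT, with circles for females, triangles for males and bars for the group mean and SD. The 6 Het points of Gpr17, from 15.1 to 20.8 CPM, lie above the 5 WT points, from 12.2 to 15.0 CPM. The closest Het and WT points of Gpr17 lie 0.0402 CPM apart, and 3.35% of all genes tested had no overlap. The groups overlap for the other 9 genes.

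The promoters of Pdgfra and Lhfpl3 are shown because they held the matches to 3 motifs searched at the start sites of these genes. RefSeq windows of GRCm38.p6, from 250 bases before to 50 bases after the start site, were at hand for 8 of the 10 genes, all but Gpr17 and Olig1. The letters AAAGTTT, known as the core of the motif bound by the MYT1 family, were searched on both strands and occur in 4.74% of 32851 windows. Among the 8 windows they occur in that of Pdgfra, at chr5:75152001-75152300 on the plus strand, as AAACTTT starting at position -49 from the start site. The E-box CAGCTG, which reads the same on both strands and occurs in 16.3% of windows, is in that of Lhfpl3, at chr5:22745804-22746103 on the plus strand, with 2 matches of which the first starts at -158. The SOX motif ACAAAG, in 18.7% of windows on either strand, is in none of the 8, and no match says only that these letters are not in these windows. Capitals mark the matches.
Pdgfra: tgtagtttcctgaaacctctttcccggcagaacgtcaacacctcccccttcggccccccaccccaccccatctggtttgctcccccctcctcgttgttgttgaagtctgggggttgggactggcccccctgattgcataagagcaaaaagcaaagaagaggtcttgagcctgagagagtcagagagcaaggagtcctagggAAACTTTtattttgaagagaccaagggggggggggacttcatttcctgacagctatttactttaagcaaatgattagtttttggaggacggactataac
Lhfpl3: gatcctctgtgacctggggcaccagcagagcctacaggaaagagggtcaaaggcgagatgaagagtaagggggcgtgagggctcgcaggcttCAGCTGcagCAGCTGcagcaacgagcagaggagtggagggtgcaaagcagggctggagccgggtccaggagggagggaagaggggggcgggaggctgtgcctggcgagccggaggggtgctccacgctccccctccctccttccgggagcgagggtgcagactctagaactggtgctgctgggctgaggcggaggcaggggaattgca
Neither gene differed between Het and WT past the test, as given below.

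Among the surface molecules of precursors, Pdgfra encodes the receptor through which PDGF keeps precursors dividing (mm10 chromosome 5, from 75152292 to 75198215, plus strand). It stood at 13.0 CPM at the lowest, 15.5 at the median and 17.4 at the highest of the 6 Het libraries, against 13.5, 13.3, 17.3, 13.5 and 13.0 CPM in WT replicates 4, 6, 3, 7 and 11. In WT, replicate 3 was far above the other 4, and the groups overlapped. Pdgfra averaged 15.4 ± 1.42 CPM in Het and 14.1 ± 1.79 CPM in WT (SD, n = 6 and 5), a log2 difference of 0.14 (95% confidence interval -0.08 to 0.35, limma adjusted p = 0.438). Without Het replicate 9 and WT replicate 11 the difference was 0.12.

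Cspg4 encodes NG2, a proteoglycan that precursors share with pericytes (chromosome 9, from 56865033 to 56899870, plus strand). Its level ran from 5.04 CPM through a median of 6.94 to 8.30 CPM in Het, and was 5.89, 4.62, 3.58, 5.16 and 4.66 CPM in WT replicates 4, 6, 3, 7 and 11. In Het, 4 of 6 libraries lay above the highest WT library, and the other 2, replicates 4 and 9, lay within the WT range. The means were 6.86 ± 1.39 CPM in Het and 4.78 ± 0.84 CPM in WT (SD, n = 6 and 5), with a log2 difference of 0.45 (SE 0.16, 95% confidence interval 0.12 to 0.79) and a limma adjusted p of 0.113. An exact permutation of the genotype labels within each sex (two-sided) gave p = 0.035, where 200 arrangements allow 0.005 at best. No adjustment was made, and 22.3% of all genes tested had an unadjusted limma p under 0.05. Without the 2 libraries whose Myt1l goes against their labels the difference was 0.535 (limma adjusted p = 0.115), and it was 0.67 within prefix 14308 and 0.39 within prefix 14309. None of 10 pericyte markers passed the test. Their median log2 difference was 0.09, with 6 of 10 above 0. Without the 2 libraries it was 0.11, with 7 of 10 above 0. Their summed level was 204 to 322 CPM in Het and 265 to 284 CPM in WT. Vtn gave the largest part of this sum, at 146 CPM in Het and 174 CPM in WT. Its log2 difference was -0.32, and -0.29 without the 2 libraries. Fibroblasts also carry Pdgfra, and 9 of their markers were in the table. These summed to 96.3 to 264 CPM in Het and 171 to 221 CPM in WT. All 8 that were tested had a negative log2 difference, with a median of -0.31, and 1 passed, Dcn (-0.36). Without the 2 libraries the median was -0.115, 1 of 8 was above 0 and Dcn did not pass. The part of these cells in the levels of Cspg4 and Pdgfra was not tested.

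Gpr17, a receptor of the committed stage whose activity holds differentiation back (chromosome 18, from 31942997 to 31949636, minus strand), had values of 15.1, 16.8 and 17.6 CPM in the Het females, replicates 2, 4 and 7. The Het males, replicates 5, 8 and 9, had 20.8, 18.8 and 18.9 CPM. The WT females, replicates 4 and 6, had 12.2 and 14.5 CPM, and the WT males, replicates 3, 7 and 11, had 14.8, 14.3 and 15.0 CPM. The groups did not overlap, but the lowest Het library, with 357 corrected counts, and the highest WT library, with 358, lay 0.0402 CPM apart, less than 1 corrected count. Gpr17 was the 1 gene of 10 without overlap, where 3.35% of all genes tested had none and 2.02% had none with Het higher. It averaged 18.0 ± 1.96 CPM in Het and 14.2 ± 1.13 CPM in WT (SD, n = 6 and 5), and the log2 difference was 0.35 (SE 0.09, 95% confidence interval 0.16 to 0.54, limma adjusted p = 0.0442). The two-sided exact permutation within sex gave p = 0.01. It was not adjusted, and it was run on values already corrected by the authors under an unstated design.

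The call for Gpr17 was near the threshold. Without Het replicate 9 and WT replicate 11 the difference was 0.36, as large as before, with a limma adjusted p of 0.0875. Each of the 27 alternatives gave a positive difference, from 0.24 to 0.43, and 5 kept it past the threshold. The call was lost in 10 of the 11 fits that left out 1 library, and the exception was the fit without WT replicate 3. The difference was 0.43 (adjusted p = 0.365) within prefix 14308 and 0.24 (adjusted p = 0.582) within prefix 14309. In females alone it was 0.30 and in males alone 0.39, and neither passed. The exons of Gpr17 share 188 bases with Lims2 on the opposite strand, and no source used here says whether the counting was stranded. Lims2 stood at 37.0 ± 5.09 CPM in Het and 44.5 ± 5.03 CPM in WT (SD, n = 6 and 5), a log2 difference of -0.26 (limma adjusted p = 0.145), and -0.34 without the 2 libraries. Pdgfra, Bmp4, Olig1, Sox8 and Lhfpl3 also share exonic bases with annotated genes, none of which is in the table, so their values are uncertain by an unknown share of reads.

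**Figure D2:**
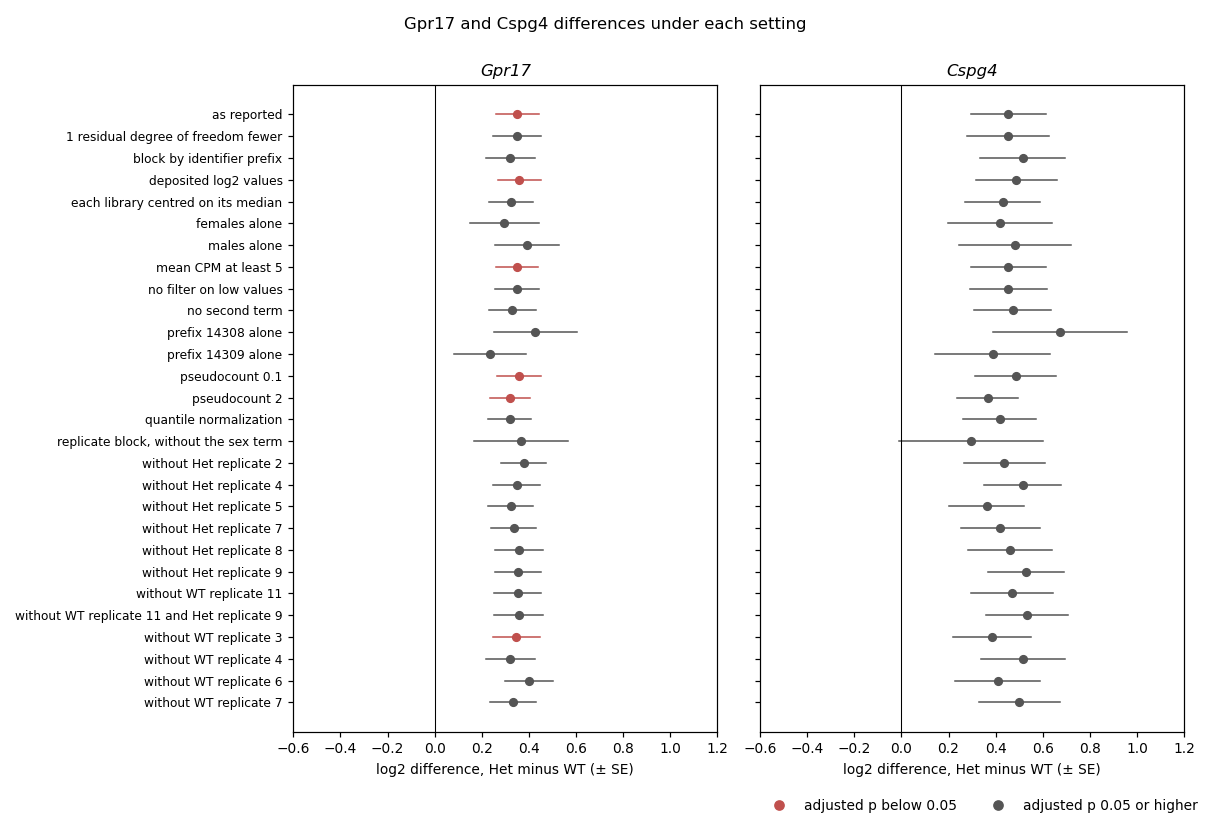
Log2 difference, Het minus WT, of Gpr17 and Cspg4 under each processing alternative, with bars for the SE. For Gpr17 the differences lie between 0.24 and 0.43, and those past the adjusted threshold of 0.05 are marked.

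Bmp4, a secreted ligand that is high in committed precursors (chromosome 14, from 46383520 to 46390669, minus strand), had a lowest value of 4.76, a median of 6.40 and a highest value of 7.69 CPM in Het. It had 5.38, 6.30, 5.74, 4.70 and 5.50 CPM in WT replicates 4, 6, 3, 7 and 11. In Het, 3 of 6 libraries exceeded every WT library and the others lay among them. The log2 difference was 0.16 (95% confidence interval -0.14 to 0.45, limma adjusted p = 0.527), and 0.17 without the 2 libraries.

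Neu4, a sialidase of the same stage (chromosome 1, from 94020451 to 94028334, plus strand), had the largest negative difference of the 10. It stood at 13.9 CPM at the lowest, 14.8 at the median and 19.6 CPM at the highest in Het, against 20.1, 17.5, 18.8, 17.8 and 17.9 CPM in WT replicates 4, 6, 3, 7 and 11. The lowest 4 libraries of the 11 were Het, and Het replicates 8 and 9 lay within the WT range. The means were 15.96 ± 2.52 CPM in Het and 18.4 ± 1.05 CPM in WT (SD, n = 6 and 5), a log2 difference of -0.20 (95% confidence interval -0.41 to 0.02, limma adjusted p = 0.268). The exact permutation gave p = 0.06, and without the 2 libraries the difference was -0.27 (limma adjusted p = 0.17). Within prefixes 14308 and 14309 it was -0.11 and -0.13, and without WT replicate 4 it was -0.12. The ratio of Gpr17 to Neu4, looked at after both values had been seen and so not tested, was 0.966 to 1.35 in Het and 0.608 to 0.838 in WT, and 1.01 to 1.35 in Het and 0.608 to 0.827 in WT without the 2 libraries.

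Enpp6, a choline phosphodiesterase of newly forming oligodendrocytes (chromosome 8, from 46986887 to 47096762, plus strand), had 13.8 CPM at the lowest, 18.3 at the median and 19.8 CPM at the highest in Het. In WT replicates 4, 6, 3, 7 and 11 it had 14.7, 14.4, 20.1, 13.2 and 17.7 CPM, so that the highest and the lowest of all 11 values were both WT. The log2 difference was 0.15 (95% confidence interval -0.09 to 0.40, limma adjusted p = 0.461), and 0.18 without the 2 libraries. It was 0.071 without WT replicate 7 and 0.099 without Het replicate 7.

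None of the 3 transcription factors passed the test. Olig1, a helix-loop-helix factor needed for differentiation (chromosome 16, from 91269772 to 91271933, plus strand), averaged 28.7 ± 6.36 CPM in Het and 31.5 ± 5.10 CPM in WT (SD, n = 6 and 5), with a log2 difference of -0.16 (95% confidence interval -0.42 to 0.11, limma adjusted p = 0.478). Het replicate 4, at 41.3 CPM, was above the other 5 Het libraries, which had 23.9 to 28.2 CPM, while WT libraries ranged from 25.3 to 38.2 CPM. Olig2, the factor that specifies the lineage and a neighbour of Olig1 on the chromosome (from 91225457 to 91228677, plus strand), averaged 4.57 ± 0.71 CPM in Het and 4.49 ± 0.51 CPM in WT, with a log2 difference of 0.01 (95% confidence interval -0.31 to 0.33). Sox8, a paralogue of Sox10 (chromosome 17, from 25565892 to 25570686, minus strand), averaged 15.0 ± 2.93 CPM in Het and 15.4 ± 3.19 CPM in WT, with a log2 difference of -0.03 (95% confidence interval -0.34 to 0.29). All 3 overlapped between the groups. Olig2 ranged from 3.71 to 5.28 CPM in Het and 3.65 to 4.87 CPM in WT, and Sox8 from 11.1 to 18.1 CPM in Het and 12.4 to 19.8 CPM in WT. Without the 2 libraries the log2 differences were -0.08 for Olig1, 0.04 for Olig2 and 0.12 for Sox8, so that the sign of Sox8 turned.

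Lhfpl3, a tetraspan membrane protein used as a marker of precursors (chromosome 5, from 22746059 to 23275597, plus strand), averaged 56.5 ± 5.63 CPM in Het and 57.9 ± 7.59 CPM in WT (SD, n = 6 and 5). Its range was 50.5 to 66.5 CPM in Het and 48.0 to 67.9 CPM in WT, so the groups overlapped, and the log2 difference of -0.01 had the narrowest interval of the 10, from -0.16 to 0.14. Without the 2 libraries it was -0.004.

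**Figure D3:**
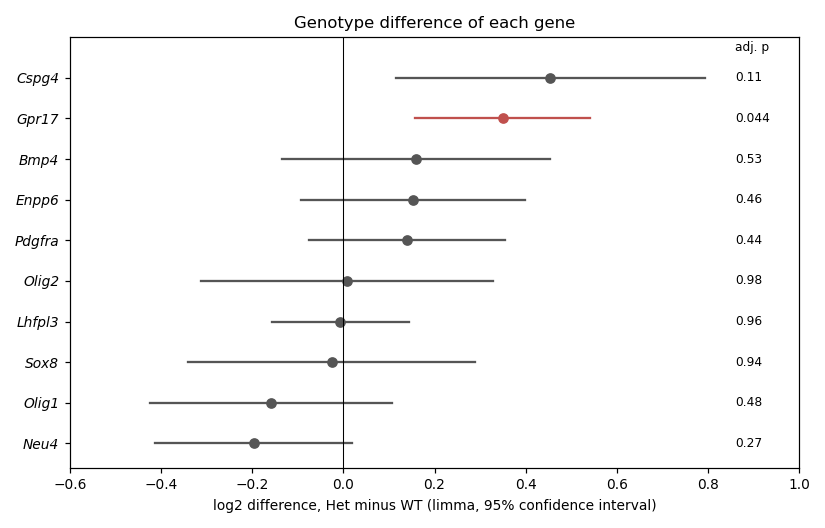
Log2 difference, Het minus WT, of the 10 genes with 95% confidence intervals from the limma fit. The interval of Gpr17, from 0.16 to 0.54, and that of Cspg4, from 0.12 to 0.79, lie above 0. Such an interval matches an unadjusted limma p under 0.05, which 22.3% of all genes tested had. Only Gpr17 is past the adjusted threshold.

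By sex, none of the 10 genes passed, where 0.197% of genes tested did so. Lhfpl3 averaged 52.0 ± 2.67 CPM in females and 61.4 ± 5.00 CPM in males (SD, n = 5 and 6). Females ranged from 48.0 to 54.3 CPM and males from 56.2 to 67.9 CPM, without overlap, where 1.03% of genes tested had no overlap by sex and 0.622% had none with females lower. The log2 difference, female minus male, was -0.235 (SE 0.071, limma adjusted p = 0.21), and -0.29 without the 2 libraries (limma adjusted p = 0.13). With the identifier prefix as a block it was -0.08 (limma adjusted p = 0.816). The 4 males of prefix 14308 had 58.6 to 67.9 CPM. Within prefix 14309, 4 females had 50.5 to 54.3 CPM and 2 males had 56.2 and 56.9 CPM. Gpr17 averaged 15.2 ± 2.10 CPM in females and 17.1 ± 2.72 CPM in males, a log2 difference of -0.19 (limma adjusted p = 0.407) that did not pass. For the genotype by sex term, none of the 10 passed, and 0 of all genes tested passed, with 613 at an unadjusted p under 0.05. The largest was Neu4, where Het females had 13.9 to 14.2 CPM against 17.5 to 20.1 CPM in WT females, and Het males had 15.3 to 19.6 CPM against 17.8 to 18.8 CPM in WT males (difference of the 2 differences -0.37, limma adjusted p = 0.982, and -0.295 without the 2 libraries).

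Levels were compared per kilobase of exon over all 11 libraries. Lhfpl3 had the highest level, at 17.8 ± 1.95 CPM per kilobase, followed by Olig1 at 13.9 ± 2.65 and Sox8 at 4.87 ± 0.93 (SD, n = 11). Neu4 at 3.68, Gpr17 at 3.13, Bmp4 at 2.66 and Enpp6 at 2.62 CPM per kilobase formed the middle. Bmp4 and Enpp6 differed by 0.0813 of the larger SD and Gpr17 and Bmp4 by 0.966, so these neighbours were not separated beyond their spread. Neu4 stood above Gpr17 in 8 of 11 libraries, and their levels were 3.44 and 3.46 CPM per kilobase in Het, against 3.98 and 2.73 CPM per kilobase in WT. Olig2 at 1.79, Pdgfra at 1.48 and Cspg4 at 0.496 CPM per kilobase came last, and Pdgfra and Cspg4 stood in this order in 11 of 11 libraries. Over all libraries, the coefficient of variation was 26.3% for Cspg4, whose counting error was 8.42%, and 11.0% for Lhfpl3, whose counting error was 2.71%. For Olig2 it was 13.2%, with a counting error of 9.63% and as few as 87 corrected counts in a library.

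Further genes of the lineage were counted in lists. Among 24 other precursor genes, 1 rose, Ncan, which encodes neurocan, a matrix proteoglycan also made by other cells. Ncan averaged 159.7 ± 12.3 CPM in Het and 104.2 ± 13.9 CPM in WT (SD, n = 6 and 5; log2 difference 0.63, limma adjusted p = 0.00292), with 0.64 without the 2 libraries (limma adjusted p = 0.00264), and the list's median was 0.08, or 0.115 without them. Among 20 genes of newly formed oligodendrocytes, 1 rose, Tcf7l2, a Wnt pathway factor that thalamic neurons share, with 59.3 ± 9.49 CPM in Het and 45.04 ± 2.58 CPM in WT (log2 difference 0.39, limma adjusted p = 0.0327), and 0.325 without the 2 libraries, which did not pass (limma adjusted p = 0.082). Among 22 regulators of differentiation, 1 rose, Sox11, a factor of immature neurons as well, with 41.3 ± 3.81 CPM in Het and 29.3 ± 3.29 CPM in WT (log2 difference 0.51, limma adjusted p = 0.00635), and 0.54 without the 2 libraries (limma adjusted p = 0.0182). Shares of 1 in 20 to 24 genes lie close to the 3.44% of all genes tested.

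No gene passed among 11 genes of PDGF signalling, the pathway of the Pdgfra receptor. The smallest p there was that of the ligand gene Pdgfa, at 33.1 CPM in Het and 38.5 CPM in WT (log2 difference -0.21, limma adjusted p = 0.115, and -0.17 without the 2 libraries). None of 19 tested genes of BMP signalling, the pathway of Bmp4, passed, and the smallest p was that of Smad4, the shared mediator (log2 difference 0.28, limma adjusted p = 0.243, and 0.33 without the 2 libraries), while Smad6 and Grem1 were below the filter. Of 22 genes of mature myelin, none passed, and their median log2 difference was 0.025, which turned to -0.037 without the 2 libraries. The smallest p was that of Apod, a lipid carrier, at 602 CPM in Het and 705 CPM in WT (log2 difference -0.23, limma adjusted p = 0.0572, and -0.26 without the 2 libraries). Among the cell type lists not yet given, none of 10 neuron, 10 microglia, 10 endothelial and 8 tanycyte and ependymal genes passed, 1 of 10 astrocyte genes rose (Slc1a2, log2 difference 0.40, and 0.35 without the 2 libraries), and of 10 thalamus and cortex genes 1 rose, which was Tcf7l2.

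**Figure D4:**
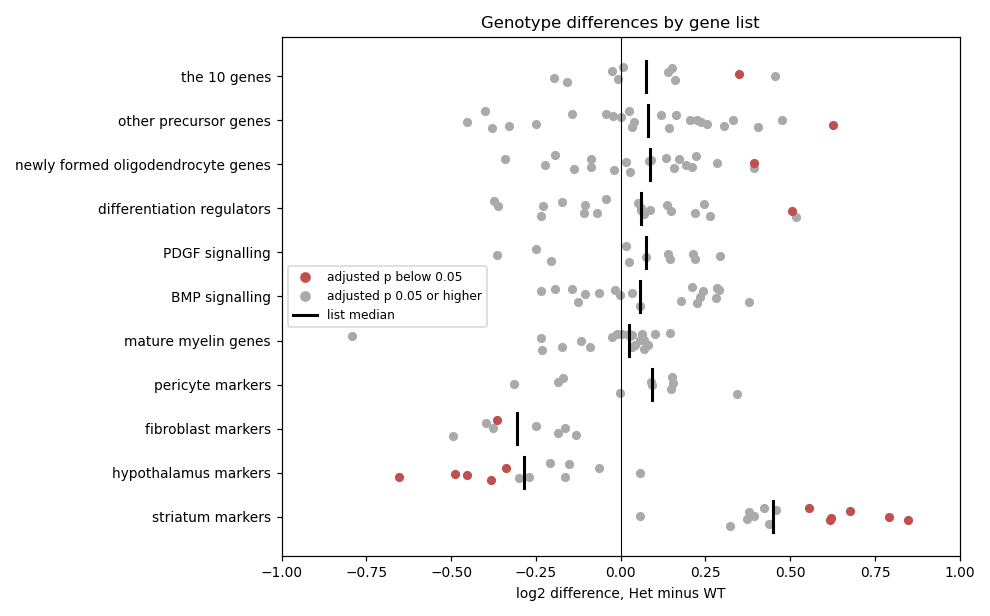
Log2 difference, Het minus WT, of every gene tested in each list, 1 point per gene, with the list's median as a bar and genes past the adjusted threshold in red. The median of the 10 genes is 0.07 and that of the mature myelin genes 0.025, while the striatum markers sit at 0.45.

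Pairs of the 10 genes were compared across libraries after centring within genotype and sex. Of the 45 pairs, 24 had a positive and 21 a negative Pearson r, with a median of 0.07, and none passed after adjustment over the pairs. Bmp4 and Olig2 had the highest r, 0.952 (Spearman rho 0.827), with exact permutation p of 0.00463 for r and 0.0278 for rho, adjusted 0.208 and 1, where the smallest p possible was 0.00231. Without the 2 libraries farthest from the median of Bmp4, r was 0.921, and without Het replicate 9 and WT replicate 11 it was 0.987. Both genes have fewer corrected counts than most of the 10, and neither prefix holds enough libraries of each genotype and sex for a value of its own. The lowest r was -0.653, for Neu4 and Lhfpl3. As a description with no test, the gene with the highest r to Gpr17 over the 11 centred libraries, among all other genes tested, was Axin1 (r = 0.980). That for Pdgfra was Pak7 (r = 0.966), that for Cspg4 was Slc35g2 (r = 0.969) and that for Bmp4 was Dcun1d3 (r = 0.969). For Neu4 it was Ggt1 (r = 0.983), for Enpp6 Kcnj3 (r = 0.981) and for Olig1 Nim1k (r = 0.978). For Olig2 it was Hacd4 (r = 0.989), for Sox8 Dmap1 (r = 0.989) and for Lhfpl3 Uhmk1 (r = 0.996). Each is the largest r picked from all other genes tested, on few centred values, so values this high can arise by selection alone.

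**Figure D5:**
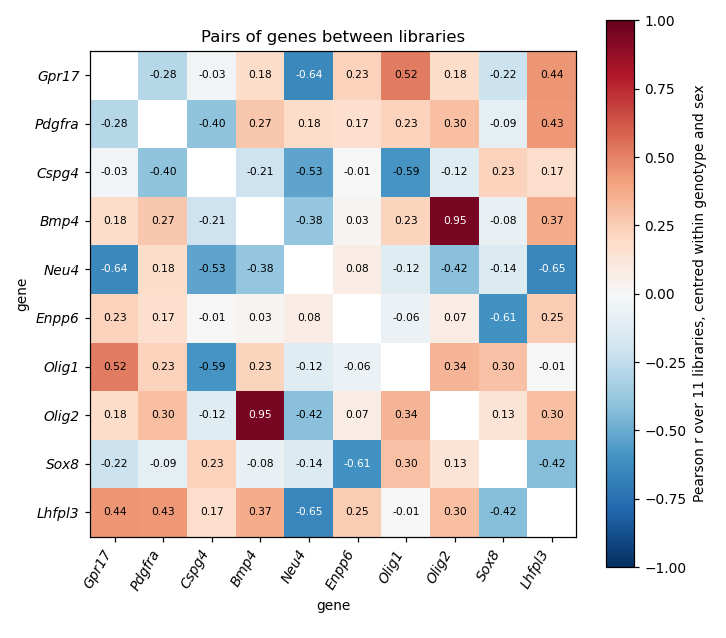
Pearson r of log2 levels between the 10 genes over 11 libraries, after centring within genotype and sex, with genes on both axes and colour for r. Values run from -0.653 for Neu4 and Lhfpl3 to 0.952 for Bmp4 and Olig2.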

How the data were processed

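Per the labels, total RNA came from a Zymo extraction and went into SMARTer Ultra Low libraries. The submitters' processing notes name Trimmomatic, Bowtie2, STAR, HTSeq and build mm10, without versions. The deposited values are log2 CPM plus a constant, after a correction by the authors that the table's name gives as RUVr. No source used here states its number of factors, its design or how genes were filtered. Such a correction can make p-values too small, since it lowers the spread that the test reads. The permutations were run on the same corrected values, so they share this limit.

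Values were back-transformed to CPM, where 100% were whole multiples of 1 step per library within 0.02, one step being 0.04174 to 0.04225 CPM. Counting errors from these corrected counts cover counting alone, since PCR copies were not marked by molecular identifiers. Genes were kept where their mean CPM reached 1, which left out 1680. The main test was limma 3.58.1 (R 4.3.3; lmFit, eBayes with trend) on log2(CPM + 0.5) with genotype and sex as terms, two-sided, adjusted by Benjamini-Hochberg over all 13184 genes at a threshold of 0.05; fold changes on this scale understate those of low genes. A genotype by sex term was fitted separately. Exact permutations of genotype within sex, and of pairs within genotype and sex, used Python 3.11.15 and SciPy 1.17.1. The methods were tested on simulated data. The simulated tables for the limma fits held no RUVr step, prefix effect or wrong label, so they say nothing about these.

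All 10 genes are named; of each other list of the lineage, its regulators and pathways, up to 4 genes past the threshold, or else the gene with the smallest p. Lists of other cell types and regions are given by counts. Dcn and Slc1a2, the calls of their lists, were named after their values were seen. So were Vtn and Penk, the largest parts of the pericyte and striatum sums. Alternatives covered the pseudocount, filter, scaling, terms, blocks, sexes, prefixes and libraries. The 10 genes and the lists were chosen with earlier results of these data known. Coordinates and exon lengths are GENCODE M21 on mm10.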

Additional observations from a re-analysis of the deposited data

Results flagged for a closer look

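Each of the 10 genes was looked at in the 6 Het and in the 5 WT libraries, and of these 20 groups 3 held a library far from the others, where chance gives about 1 in 20. Gpr17 in WT replicate 4 was 12.23 CPM, with the next WT library at 14.26 CPM. Without that library the log2 difference was 0.32 (limma adjusted p = 0.105). Pdgfra in WT replicate 3 was 17.29 CPM, with the next at 13.5 CPM, and the difference without it was 0.198. Olig1 in Het replicate 4 was 41.31 CPM, with the next at 28.17 CPM, and the difference without it was -0.247. No other gene or group was past the limit.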

How the results depend on the processing

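Over all genes, 453 passed for Het against WT. That count was 189 with 1 residual degree of freedom fewer, 300 with a block by prefix, 200 without the sex term, 229 without Het replicate 9 and WT replicate 11, 6 and 16 within prefixes 14308 and 14309, 1 in males alone and 0 in females alone (limma, with 1981 under 0.05 before adjustment). Of the 10 genes, 0 passed under each of these, and also with median centring, quantile normalization or no filter, where the adjusted p of Gpr17 was 0.0589, 0.0663 and 0.053. Leaving out 1 library gave 0 to 1 of the 10 genes and 140 to 820 of all genes, with 820 without WT replicate 3, 140 without WT replicate 6, 180, 191, 220 and 287 without Het replicates 9, 8, 2 and 4, and 219 and 243 without WT replicates 4 and 7. Calls split into 303 higher and 150 lower as reported, 233 and 243 with median centring, and 362 and 102 with quantile normalization. For female against male, 26 genes passed, against 11 with 1 degree of freedom fewer, 6 with the prefix block, 9 without the genotype term, 17 without both doubted libraries and 10 to 62 leaving out 1 library. None of the 10 genes passed for sex or for genotype by sex under any alternative run.

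The replicate numbers 4 and 7 alone occur in both genotypes, on libraries with different identifiers, so the libraries share only a number. With replicate as a block, the genotype difference rests on the libraries of these numbers alone. Number 7 sets a Het female against a WT male, and Het replicate 4 holds the Olig1 value flagged above. With the replicate block and no sex term, 46 genes and 0 of the 10 passed, Gpr17 was 0.37 (adjusted p = 0.544) and Olig1 turned to 0.353. Olig2 turned to -0.015 with the prefix block, -0.016 with median centring, -0.023 with quantile normalization and -0.093 within prefix 14309, and ranged from -0.052 to 0.063 leaving out 1 library. Sox8 turned to 0.004 with the prefix block, 0.049 in females, 0.21 within prefix 14308 and 0.122 without both doubted libraries, and ranged from -0.112 to 0.059 leaving out 1 library. Lhfpl3 turned to 0.04 in females and 0.006 with quantile normalization, and ranged from -0.046 to 0.029 leaving out 1 library. Pdgfra, Cspg4, Bmp4, Neu4 and Enpp6 kept their direction and stayed short of the threshold in all 27 alternatives. Leaving out 1 library, they ranged from 0.1 to 0.198, 0.362 to 0.529, 0.115 to 0.229, -0.252 to -0.123 and 0.071 to 0.219, and Olig1 from -0.253 to -0.101. Olig2 was below the filter of a mean CPM of 5. The cause of these changes was not tested.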

Other observations

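The ratio of Olig1 to Olig2 was 4.76 to 8.21 in Het and 6.33 to 7.85 in WT libraries, that of Gpr17 to Pdgfra 0.968 to 1.35 in Het and 0.859 to 1.16 in WT, and that of Gpr17 to Enpp6 0.890 to 1.22 in Het and 0.740 to 1.08 in WT. Each overlapped between the groups, and none was tested.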
